A study of Mus musculus with 37 samples.

Results

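Collagens are proteins of the extracellular matrix whose chains, each the product of its own gene, wind into triple helices. The genes described here are the protein-coding genes whose mouse symbol names a collagen chain (Col, a number, the letter a and a number). They also had a mean level of 0.5 CPM (counts per 1000000 counts of the scaled library) or more over all 37 libraries. Of 44 genes so named, 42 met this limit, among 50686 genes in all and 16728 tested, and all 42 were tested. They were 11 fibrillar chains, 5 chains of type VI collagen, 8 basement membrane chains, 7 fibril-associated chains, 3 junction-linked chains and 8 others. Just inside the limit lay Col10a1 (0.559 CPM), Col25a1 (0.704) and Col4a6 (0.767), and just outside lay Col9a3 (0.373) and Col6a4 (0.252).

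The samples were gastrocnemius, a mixed calf muscle, from mice with Nampt knocked out in skeletal muscle and from wild-type mice. Nampt is the enzyme that turns nicotinamide into a precursor of NAD. Wild-type (WT) and knockout (KO) animals were taken at an age of 2 weeks (6 WT, 5 KO), 4 weeks (6 and 5), 6 weeks (2 and 2) and 8 weeks (5 and 6). RNA was sequenced in bulk, 1 library per numbered animal, in sequencing pools A and B. The driver of the knockout, the strain and what the wild-type animals carry are not given in the sources used here, and sex was labelled at all ages but 2 weeks.

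Fibrillar collagens (types I, II, III, V, XI, XXIV and XXVII) form the ropes of tendon and of the sheaths around muscle fibres. Fibril-associated collagens decorate those ropes, type VI collagen forms beaded filaments next to the muscle fibre, and type IV collagen is the mesh of basement membranes. In muscle most collagen RNA is made by fibroblasts and related stromal cells, while some chains are made by muscle fibres, nerve, vessel or tendon cells. In bulk RNA, fewer or more cells of a type and less or more RNA per cell cannot be told apart, for any chain below.

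Library totals ran from 5192700 to 23134727 counts. Nampt itself was lower in the knockout at each age, with log2 fold changes of -0.96, -1.03, -2.07 and -2.05 at 2, 4, 6 and 8 weeks. Genes annotated as ribosomal RNA held 8.49% to 29.3% of counts in 5 libraries (WT animals 3 and 4 and KO animal 8 at 4 weeks, WT animals 34 and 35 at 8 weeks) and at most 1.24% in the others. WT animals 34 and 35 were the entire 8-week wild type of pool A. In 3 libraries the sex-linked genes differed from the label (WT animal 4, KO animals 12 and 42). WT animal 4, labelled female, held both the female-linked Xist (45.1 CPM) and the Y-linked Ddx3y (8.00 CPM). KO animal 8, labelled male, also held both (1.95 and 87.3 CPM) and was not counted among the 3. Slow-fibre myosin stood out in WT animal 36. All 10 markers of muscle fibres were detected in every group. Their summed levels at 8 weeks were 84079 to 177391 CPM in wild type and 44839.7 to 131073 CPM in knockout.

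The most abundant chains were those of types I and III. In 2-week wild type, per kilobase of transcript, Col1a1 reached 1657 ± 170.4 CPM (SD, n = 6), Col1a2 1305 ± 112 and Col3a1 1112 ± 88.5. Next came the basement membrane chain Col4a1 at 243 ± 9.15 CPM per kilobase. Then came Col6a1 at 121 ± 6.07, Col6a2 at 117 ± 8.29 and Col4a2 at 111 ± 4.07, which overlapped in their spread. At the low end lay Col10a1, the collagen of maturing growth-plate cartilage, at 0.215 ± 0.0653, Col9a1 at 0.152 ± 0.0620 and Col4a6 at 0.140 ± 0.0541, which also overlapped. Relative to its mean, Col1a1 varied more among the libraries of a genotype at 4 weeks than at 2 weeks. Its level was 9824 ± 1011 CPM at 2 weeks and 4138 ± 1195 CPM at 4 weeks in wild type (SD, n = 6 each), and 7971 ± 1514 and 2829 ± 1367 CPM in knockout (n = 5 each).

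In wild type the mean level of collagen RNA was lower at each later age. The ranges at 4 weeks (10665 to 18893 CPM) and 6 weeks overlapped, and no change to or from 6 weeks was tested. The summed level of the 42 chains was 30238 ± 1991 CPM in wild type at 2 weeks and 14373 ± 3282 CPM at 4 weeks (SD, n = 6 each). It was 10651 to 11399.6 CPM in the 2 animals of 6 weeks and 6036 ± 525 at 8 weeks (n = 5). In knockout it was 24931 ± 3633 (n = 5), 10726 ± 4139.8 (n = 5), 8701 to 10738 (2 animals) and 10532 ± 2664 (n = 6). The knockout means at 4, 6 and 8 weeks thus lay within the spread of one another, and at 8 weeks its libraries, 7804 to 14534 CPM, all lay above those of wild type, 5203 to 6614 CPM. As a share of all counts, with no scaling between libraries, the chains held 0.463 ± 0.176% in 8-week wild type and 1.43 ± 0.486% in 8-week knockout. All counts include rRNA, and the rRNA-rich WT animals 34 and 35 held 0.293% and 0.287%. The other 8-week wild-type animals held 0.460% to 0.670%, and the lowest knockout animal 0.959%.

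**Figure D1:**
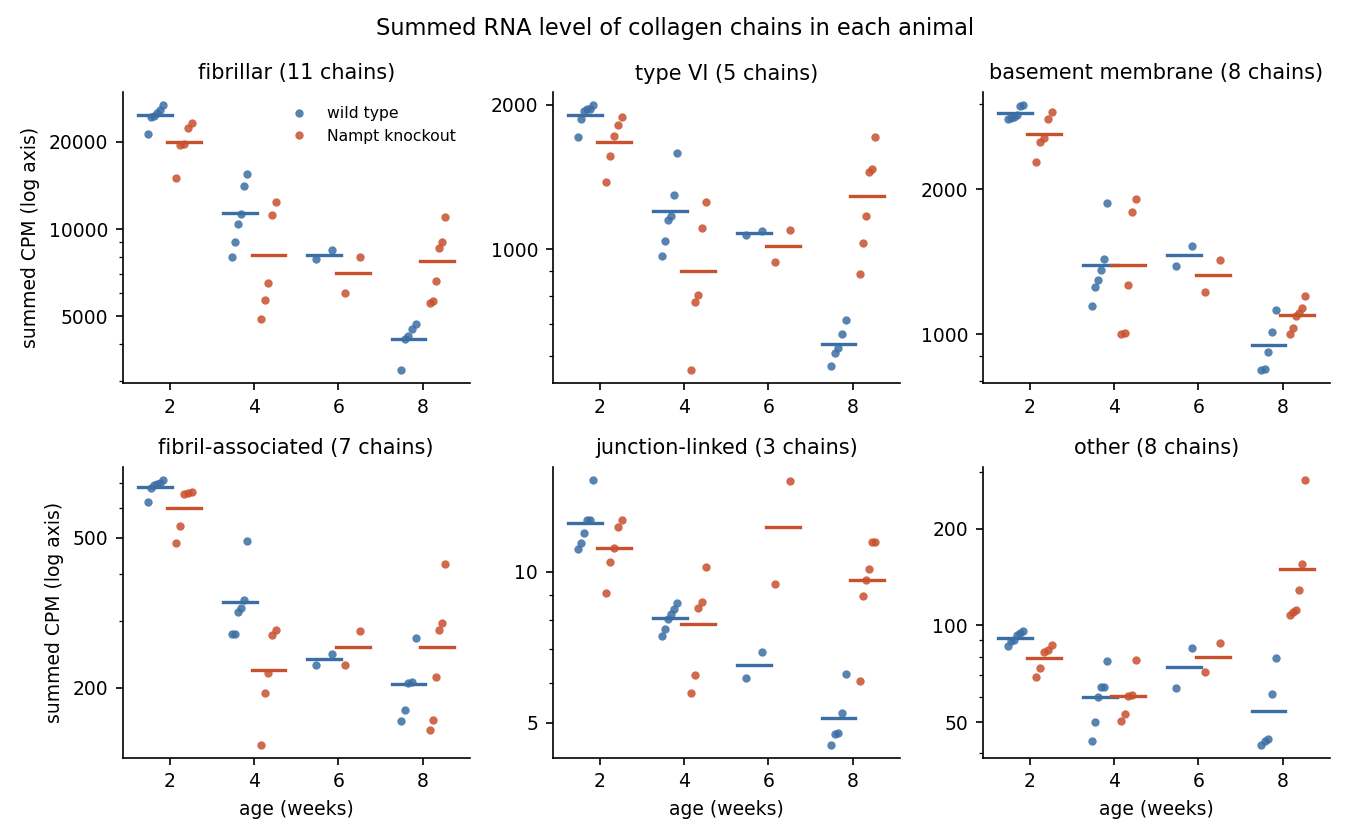
Summed level (CPM, log axis) of the chains of each class in every animal against age, with 1 point per animal and a bar at the group mean. Type VI chains at 8 weeks lie at 572 to 711 CPM in wild type and 887 to 1715 CPM in knockout, while basement membrane chains overlap between the genotypes at every age.

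From 2 to 4 weeks in wild type, 31 of 42 chains fell (73.8%, against 23.6% of all genes tested) and 2 rose (24.2% of all genes did), by edgeR's quasi-likelihood test with Benjamini-Hochberg adjustment. All 11 fibrillar and all 5 type VI chains were among those that fell, with medians of -1.02 and -0.73 on the log2 scale against -0.04 over all genes. Col1a1 changed by -1.26 (SE 0.25), Col3a1 by -1.02 (SE 0.20) and Col4a1 by -1.08 (SE 0.13). The 2 that rose were Col9a1, a chain of cartilage type IX collagen, by 1.99 (SE 0.43), and Col4a3, a chain of specialised basement membranes, by 0.48 (SE 0.18). The call of Col4a3 was lost without WT animal 23 or 25, in each pool alone, without the pool term, with RLE factors and with library sizes alone. In 28 of the 42 every 4-week library lay below every 2-week library (14.3% of all genes did so), and in Col9a1 and Col4a3 every one lay above (16.9%). The 9 chains that did not pass were Col4a4, Col4a5, Col4a6, Col22a1, Col20a1, Col19a1, Col8a1, Col8a2 and Col7a1. Among the junction-linked chains Col25a1 was at 1.38 ± 0.468 CPM at 2 weeks and 0.528 ± 0.436 CPM at 4 weeks (SD, n = 6 each), and Col13a1 at 4.42 ± 0.314 and 2.56 ± 0.555 CPM.

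The knockout passed through the same interval with 31 chains that fell (18.0% of all genes did) and 0 that rose (20.3% of all genes did). All 11 fibrillar and all 5 type VI chains were again among those that fell. In 27 chains every 4-week library lay below every 2-week library (12.7%). From 4 to 8 weeks in wild type 22 chains fell (7.59% of all genes did) and 0 rose (7.80% of all genes did). Col1a1 changed by -1.70 (SE 0.26), Col3a1 by -1.51 (SE 0.21), Col6a3 by -1.13 (SE 0.17) and Col2a1, the cartilage fibrillar chain, by -2.65 (SE 0.33). The groups did not overlap in 14 of the 22 (3.95% of all genes were so separated downward). In knockout 11 chains rose (23.1% of all genes did) and 15 fell (21.5% of all genes did). Here Col3a1 changed by 0.54 (SE 0.21), Col6a3 by 0.64 (SE 0.17) and Col8a1, a short network-forming chain, by 2.06 (SE 0.28). Col1a1 changed by -0.67 (SE 0.26) and Col2a1 by -3.25 (SE 0.32). This split depended on the setting, and the share of all genes that rose or fell in each setting is not given here. Without KO animal 7 it was 6 that rose and 18 that fell, in pool B alone 5 and 14, and in pool A alone 12 and 5. It was 7 and 14 with the labelled sex as a term, 4 and 9 with only the groups compared, and 20 and 6 with library sizes alone. The last scaling set the median of all genes at 0.68 in this comparison and at -0.53 and -0.61 from 2 to 4 weeks in wild type and knockout. In pool B alone 9 chains fell from 2 to 4 weeks in knockout, where pool B held 1 library at 2 weeks, and in pool A alone 5 fell from 4 to 8 weeks in wild type.

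At 2 weeks no chain differed between the genotypes by edgeR's test (0 of 42, against 0.0598% of all genes tested), nor by DESeq2 (0 of 42). Col4a5 alone had an unadjusted p below 0.05 (4.86% of all genes did). Levels in knockout were nonetheless on the low side: the median log2 fold change over the chains was -0.17, against -0.02 over all genes. Values above 0 were found in 9 of 42 chains and in 7560 of 16728 genes tested. In 3 chains (Col16a1, Col18a1 and Col8a1) every knockout library lay below every wild-type library (2.46% of all genes did so). Col18a1, the source of endostatin, was at 74.5 to 84.7 CPM in wild type and 58.3 to 73.7 CPM in knockout.

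At 4 weeks 0 chains passed the threshold in edgeR (5.66% of all genes did) and 1, Col11a1, in DESeq2. An unadjusted p below 0.05 was reached by 19 chains (45.2%, against 21.6% of all genes), each with a fold change below 0. All 11 fibrillar and all 5 type VI chains had values below 0, with medians of -0.53 and -0.46, while the basement membrane chains centred on -0.08 and all genes on -0.00282. Smallest in p was Col6a1, at 271, 309 and 424 CPM (lowest, median and highest) in wild type and 154, 193, 205, 304 and 322 CPM in knockout. Its log2 fold change was -0.47 (SE 0.15, edgeR adjusted p = 0.0609). The groups overlapped in every chain but Col12a1, a fibril-associated chain of tendon and muscle sheaths, where knockout was lower (1.77% of all genes were so separated). How many chains passed at this age depended on which libraries entered. In pool A alone 12 fell, and without KO animal 11 there were 11. The share of all genes that passed in these settings is not given here. In pool A the 4-week knockout was animals 7 and 8, and rRNA held 29.3% of counts in animal 8. Without the 3 libraries at odds with their sex label Col6a1, Col6a2 and Col14a1 fell. There were 2 without KO animal 12 (Col6a1 and Col6a2), 1 without KO animal 10 (Col24a1) and 1 without WT animal 1 (Col8a2). Tendon markers were at 371 to 779 CPM in wild type and 271 to 468 CPM in knockout (2 of 8 fell). Fibroblast markers were at 1071 to 1509 and 715 to 1192 CPM (2 of 12 fell). Of all 16728 genes tested, 534 fell at this age. The part of these cells in the result was not tested.

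At 6 weeks there were 2 animals per genotype. Both wild-type animals were labelled male, KO animal 19 female and KO animal 20 male, so genotype and sex cannot be fully told apart. At this age 8 chains passed the test, 5 that rose (5.33% of all genes did) and 3 that fell (4.34% of all genes did). The falls were all in type IV collagen: Col4a3, Col4a4 and Col4a5. Col4a4 was at 6.69 and 6.73 CPM in wild type and 2.32 and 2.52 CPM in knockout, a log2 fold change of -1.47 (SE 0.28, edgeR adjusted p = 0.00111). Col4a3 changed by -1.21 (SE 0.31) and Col4a5 by -0.98 (SE 0.28). The rises were in scarce chains: Col10a1 by 2.49 (SE 0.70), Col7a1, the chain of the anchoring fibrils of skin, by 2.26 (SE 0.46), and Col27a1, a fibrillar chain of cartilage, by 1.99 (SE 0.38). The transmembrane chain Col23a1 rose by 1.92 (SE 0.37) and Col19a1 by 1.40 (SE 0.38). In 9 chains both knockout libraries lay above both wild-type libraries (27.6% of all genes) and in 14 both lay below (26.5%). Col10a1 rested on 2 and 4 counts in the wild-type libraries and 8 and 24 in the knockout. The abundant chains did not pass, with Col1a1 at 0.00 (SE 0.42), Col3a1 at -0.01 (SE 0.33) and Col6a3 at 0.09 (SE 0.27).

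None of the 8 calls at 6 weeks passed under each of the alternative settings. Pool A alone kept 3 (Col23a1, Col27a1 and Col19a1) and pool B alone 0. Library sizes alone kept 4 (Col23a1, Col27a1 and Col7a1, which rose, and Col4a4, which fell), and a term for the labelled sex the same 4 chains. Leaving out 1 animal kept between 2 (Col4a4 and Col7a1, without WT animal 16 or KO animal 20) and 7 (without KO animal 19). Col4a4 was lost only in the single pools, where 1 animal per genotype remained.

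At 8 weeks 26 of 42 chains passed the test (61.9%, against 52.6% of all genes): 15 rose (35.7%, against 26.2%) and 11 fell (26.2%, against 26.3%). The median over the chains was 0.32, against 0.03 over all genes. By class, 5 fibrillar chains rose and 3 fell, and 3 type VI chains rose and 0 fell. Of the rest, 1 basement membrane chain rose and 4 fell, 2 fibril-associated chains rose and 3 fell, and 1 junction-linked chain rose and 1 fell. The 8 other chains held 3 that rose and 0 that fell. Every knockout library lay above every wild-type library in 10 chains (13.5% of all genes) and below in 7 (10.7%). With library sizes alone 27 rose and 6 fell, and that setting placed the median of all genes at 0.82, so the directions given here are relative to most genes of the library. Of the 26 calls, 16 passed in every alternative setting that gave them a value. These were 22 settings for Col9a2 and 23 for the other chains that kept their call.

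**Figure D2:**
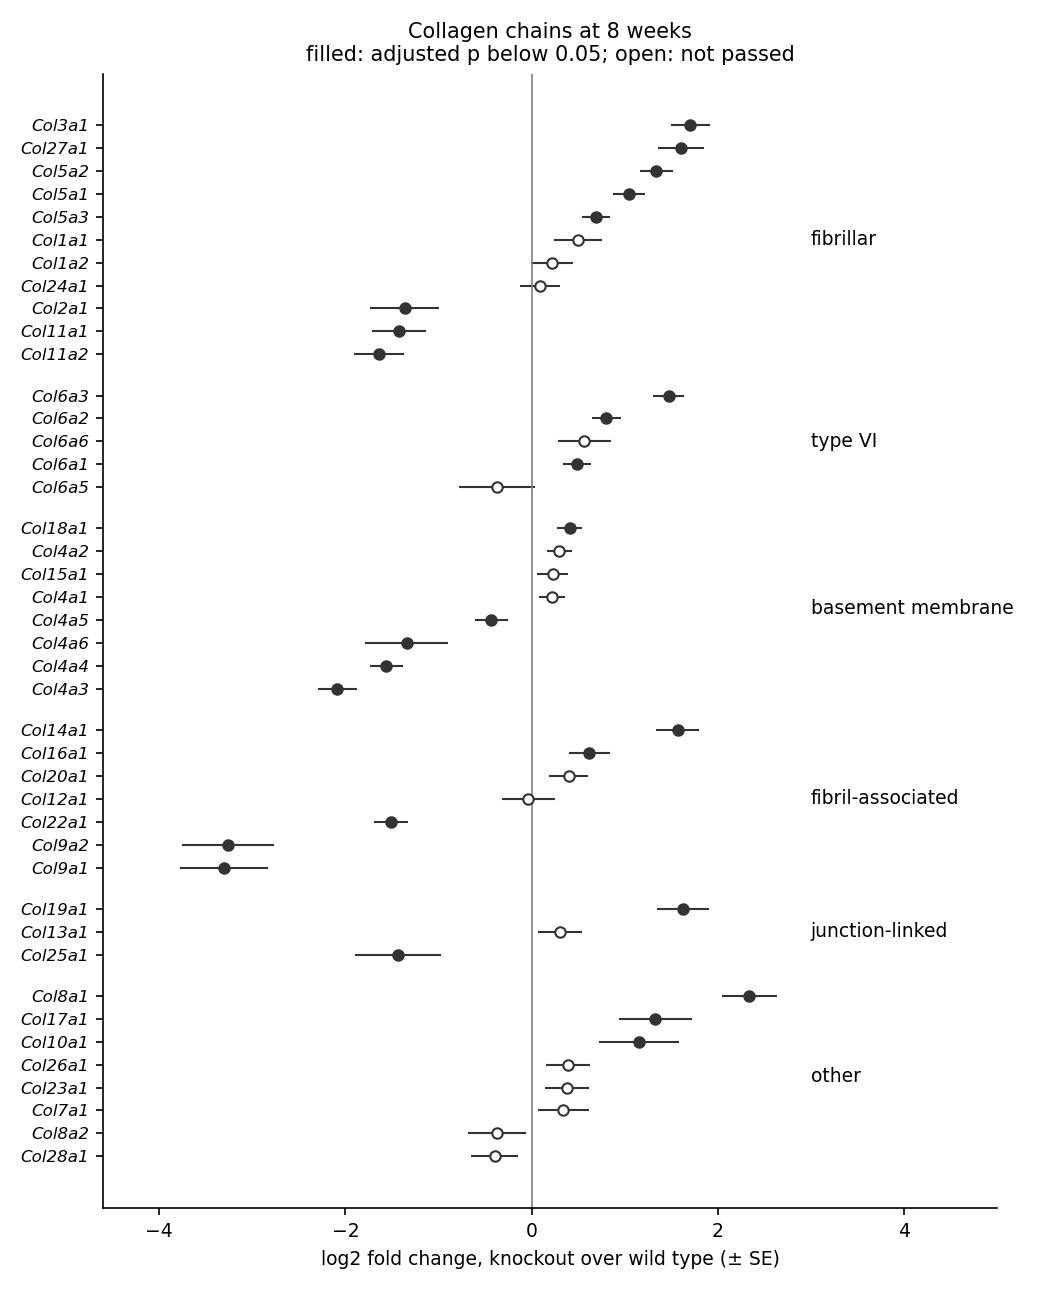
Log2 fold change of knockout over wild type at 8 weeks, with its SE, for the 42 chains by class; filled points passed the test at an adjusted p below 0.05. The values run from -3.31 (Col9a1) to 2.34 (Col8a1), and each class but type VI and the others holds called chains on both sides of 0.

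Among the fibrillar chains the shift at 8 weeks was uneven. Col3a1 (ENSMUSG00000026043.18, chromosome 1, 45311538 to 45349706, plus strand) is the chain of type III collagen, which accompanies type I in elastic and healing tissue. It was at 875, 1023, 1065, 1116 and 1260.1 CPM in wild type and at 2413, 3373 and 4527 CPM (lowest, median and highest of 6) in knockout. The groups did not overlap. The means, 1068 ± 140.1 (SD, n = 5) and 3453 ± 815 (n = 6), gave a log2 fold change of 1.71 (SE 0.21, edgeR adjusted p = 5.06e-08). The fold change was 2.06 in pool A alone and 1.40 in pool B alone. Col1a1, the major chain of type I collagen, was at 829, 1282, 1302, 1349 and 1611 CPM in wild type and 911, 1779.6 and 2897 CPM in knockout. These groups overlapped: the fold change was 0.50 (SE 0.26, edgeR adjusted p = 0.0986), and its partner Col1a2 stood at 0.22 (SE 0.22, edgeR adjusted p = 0.425). Col1a1 passed without KO animal 43 (0.64, edgeR adjusted p = 0.0308), and with library sizes alone both did (1.43 and 1.13). Per kilobase of transcript the ratio of Col3a1 to Col1a1 was 0.691 to 1.31 in 8-week wild type and 1.67 to 3.40 in 8-week knockout, without overlap, after 0.676 ± 0.0764 and 0.691 ± 0.0846 at 2 weeks.

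The chains of type V collagen, which sits inside fibrils and limits their width, rose together. Col5a2 went from 110.2, 128, 142, 144 and 159.5 CPM in wild type to 216, 342 and 529.9 CPM (lowest, median, highest) in knockout, a log2 fold change of 1.34 (SE 0.18). Col5a1 changed by 1.05 (SE 0.17) and Col5a3 by 0.69 (SE 0.15), and in each of the 3 the groups did not overlap. Col27a1, a scarce fibrillar chain of cartilage, rose from 2.62 ± 0.733 to 7.34 ± 2.07 CPM, a change of 1.61 (SE 0.25). The 3 fibrillar chains that fell, Col2a1, Col11a1 and Col11a2, are also known from cartilage. Col11a2 was at 27.4, 29.4, 36.9, 39.8 and 48.9 CPM in wild type and 6.92, 11.9 and 15.6 CPM (lowest, median, highest) in knockout. It changed by -1.64 (SE 0.27, edgeR adjusted p = 8.93e-06). Col11a1 changed by -1.42 (SE 0.29) and Col2a1 by -1.36 (SE 0.37). In all 3 the knockout libraries lay below all wild-type libraries, and with library sizes alone the calls of Col11a1 (-0.56) and Col2a1 (-0.60) were lost, as was that of Col2a1 in pool A alone. Col24a1, the last of the fibrillar chains, stood at 0.09 (SE 0.21). Markers of cartilage and bone cells summed to 32.2 to 58.5 CPM in wild type and 12.8 to 21.1 CPM in knockout. Of the 9 listed, 3 were at 0 in every library of either group, and of the 5 tested Sox9 rose and Alpl and Chad fell. Tendon markers summed to 447 to 764 and 374 to 1016 CPM. Of the 8, 6 fell (26.3% of all genes did) and 1, Thbs4, rose (26.2%). The part of either cell type in these falls was not tested.

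Col3a1, which rose, and Col1a2, which did not pass, are shown with the 250 bases before their RefSeq start (build GRCm38.p6, plus strand), since these abundant chains parted at 8 weeks. Capitals mark the letters of the motifs searched. The windows are chr1:45311288-45311537 and chr6:4505368-4505617.
Col3a1: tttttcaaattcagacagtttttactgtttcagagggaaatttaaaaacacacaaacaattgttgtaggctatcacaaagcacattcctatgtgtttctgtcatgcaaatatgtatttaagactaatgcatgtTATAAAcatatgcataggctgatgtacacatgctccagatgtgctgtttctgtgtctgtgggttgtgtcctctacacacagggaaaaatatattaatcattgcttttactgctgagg
Col1a2: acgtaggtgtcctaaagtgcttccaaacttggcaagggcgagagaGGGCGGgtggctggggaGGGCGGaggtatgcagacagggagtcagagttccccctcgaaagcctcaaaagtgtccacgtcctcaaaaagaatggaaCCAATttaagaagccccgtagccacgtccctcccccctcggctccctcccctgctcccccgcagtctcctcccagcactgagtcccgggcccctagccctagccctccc
The 4 motifs searched on both strands were the CCAAT box, spelled by its name, the GC box with the letters GGGCGG, the TATA box with the letters TATAAA and the AP-1 site with the letters TGANTCA. Each was counted on its own, even where letters were shared. Col3a1 holds 1 TATA box, and Col1a2 holds 1 CCAAT box and 2 GC boxes. A window was on hand for 34 of the 42 chains. The GC box was in 58.82% of them (32.72% of 32817 windows of all genes) and the CCAAT box in 32.35% (33.83%). The TATA box was in 14.71% (12.37%) and the AP-1 site in 2.94% (6.75%). These are matches of letters, not sites.

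Type VI collagen is built from Col6a1, Col6a2 and a larger chain, in muscle mostly Col6a3, and mutations in any of the 3 genes cause muscle disease. Col6a3 (ENSMUSG00000048126.16, chromosome 1, 90765923 to 90843971, minus strand) was at 213, 230.2, 244, 250.1 and 255 CPM in 8-week wild type and 451, 659 and 905 CPM (lowest, median, highest) in knockout. All knockout animals were above all wild-type animals, and the log2 fold change was 1.47 (SE 0.17, edgeR adjusted p = 1.25e-08). The change was 1.61 in pool A alone and 1.34 in pool B alone. Col6a2 rose by 0.80 (SE 0.16), from 158 to 229 CPM in wild type to 226 to 427 CPM in knockout, and Col6a1 by 0.49 (SE 0.15), from 186 to 217 to 195 to 368 CPM. Both pairs of groups overlapped, and in pool B alone the call of Col6a1 was lost (0.32, edgeR adjusted p = 0.134). The scarce alternatives to Col6a3 did not pass, Col6a6 at 0.56 (SE 0.28) and Col6a5 at -0.37 (SE 0.41).

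The balance within type VI drifted apart with age. Per kilobase of transcript, the ratio of Col6a3 to Col6a1 was 0.789 ± 0.0118 in wild type at 2 weeks and 0.725 ± 0.0323 at 4 weeks (SD, n = 6 each). It was 0.671 to 0.684 in the 2 animals of 6 weeks and 0.547 ± 0.0261 at 8 weeks (n = 5). In knockout it was 0.795 ± 0.0114 (n = 5), 0.816 ± 0.0767 (n = 5), 0.848 to 0.981 (2 animals) and 1.08 ± 0.0687 (n = 6). The genotypes overlapped at 2 and 4 weeks and did not at 6 and 8 weeks. A ratio within a library does not depend on its scaling, and no test was run on it.

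**Figure D3:**
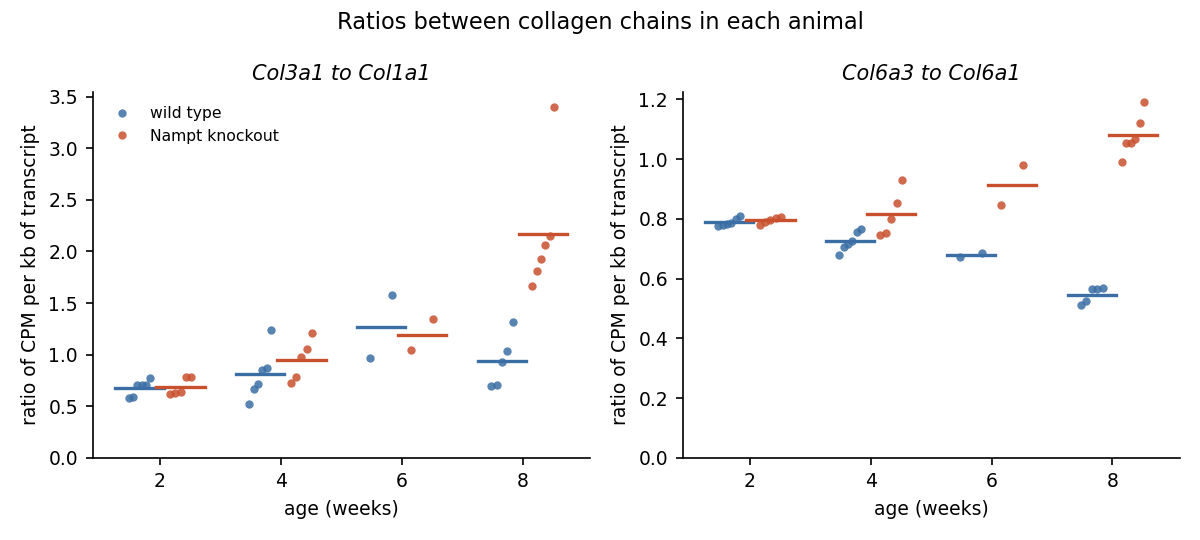
Ratio of Col3a1 to Col1a1 (left) and of Col6a3 to Col6a1 (right), each as CPM per kilobase of transcript, in every animal against age, with bars at the group means. At 8 weeks the ratio of Col6a3 to Col6a1 spans 0.512 to 0.567 in wild type and 0.989 to 1.19 in knockout.

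Basement membranes take their type IV mesh mainly from Col4a1 and Col4a2, found around muscle fibres and vessels. Col4a3 to Col4a6 are added in particular membranes and have been found at the neuromuscular junction. The common pair did not pass the test at 8 weeks, Col4a2 narrowly. Col4a1 was at 418, 454, 475, 534 and 616 CPM in wild type and 517, 569 and 608 CPM in knockout (0.22, SE 0.14, edgeR adjusted p = 0.194). Col4a2 stood at 0.30 (SE 0.13, edgeR adjusted p = 0.0567). It passed in 7 of 23 settings, which were RLE factors (0.32), DESeq2 (0.32), library sizes alone (1.16) and those without WT animal 36 (0.34, left out both as an animal and as a library that stood apart), WT animal 37 (0.34) or KO animal 43 (0.34). With library sizes alone Col4a1 also passed (1.08). Col4a3 (ENSMUSG00000079465.8, chromosome 1, 82586921 to 82722059, plus strand) was at 4.77, 4.78, 6.16, 6.18 and 7.26 CPM in wild type and at 0.485, 1.38 and 2.20 CPM (lowest, median, highest) in knockout. No libraries overlapped, and the log2 fold change of -2.09 (SE 0.21) had the smallest p of the 42 chains (edgeR adjusted p = 8.32e-10). It was -2.48 in pool A alone and -1.79 in pool B alone. Col4a4 (ENSMUSG00000067158.9, chromosome 1, 82448423 to 82586849, minus strand) was at 4.62, 5.99, 6.08, 6.11 and 6.13 CPM in wild type and 1.21, 2.03 and 2.63 CPM in knockout, also without overlap. It changed by -1.56 (SE 0.18, edgeR adjusted p = 9.23e-09), with -1.51 in pool A alone and -1.51 in pool B alone.

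The X-linked pair was less clear. Col4a6 changed by -1.34 (SE 0.45), on 3 to 15 counts per wild-type library, and lost its call without WT animal 35, without the rRNA-rich libraries (-0.93), in pool B alone and with library sizes alone. Col4a5 changed by -0.43 (SE 0.18, edgeR adjusted p = 0.0433), lost its call in 13 of 23 settings and had the opposite sign, 0.38, with library sizes alone. Per kilobase, Col4a3 to Col4a6 made up 2.21 to 3.96% of the type IV level in 8-week wild type and 0.908 to 1.62% in knockout, and 1.97 to 2.44% and 1.09 to 1.20% at 6 weeks. Col18a1 rose by 0.41 (SE 0.14) at 8 weeks, a call lost in pool B alone, without the rRNA-rich libraries and with only the 8-week groups fitted. Col15a1, which links the basement membrane to fibrils and steadies capillaries, stood at 0.23 (SE 0.17).

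**Figure D4:**
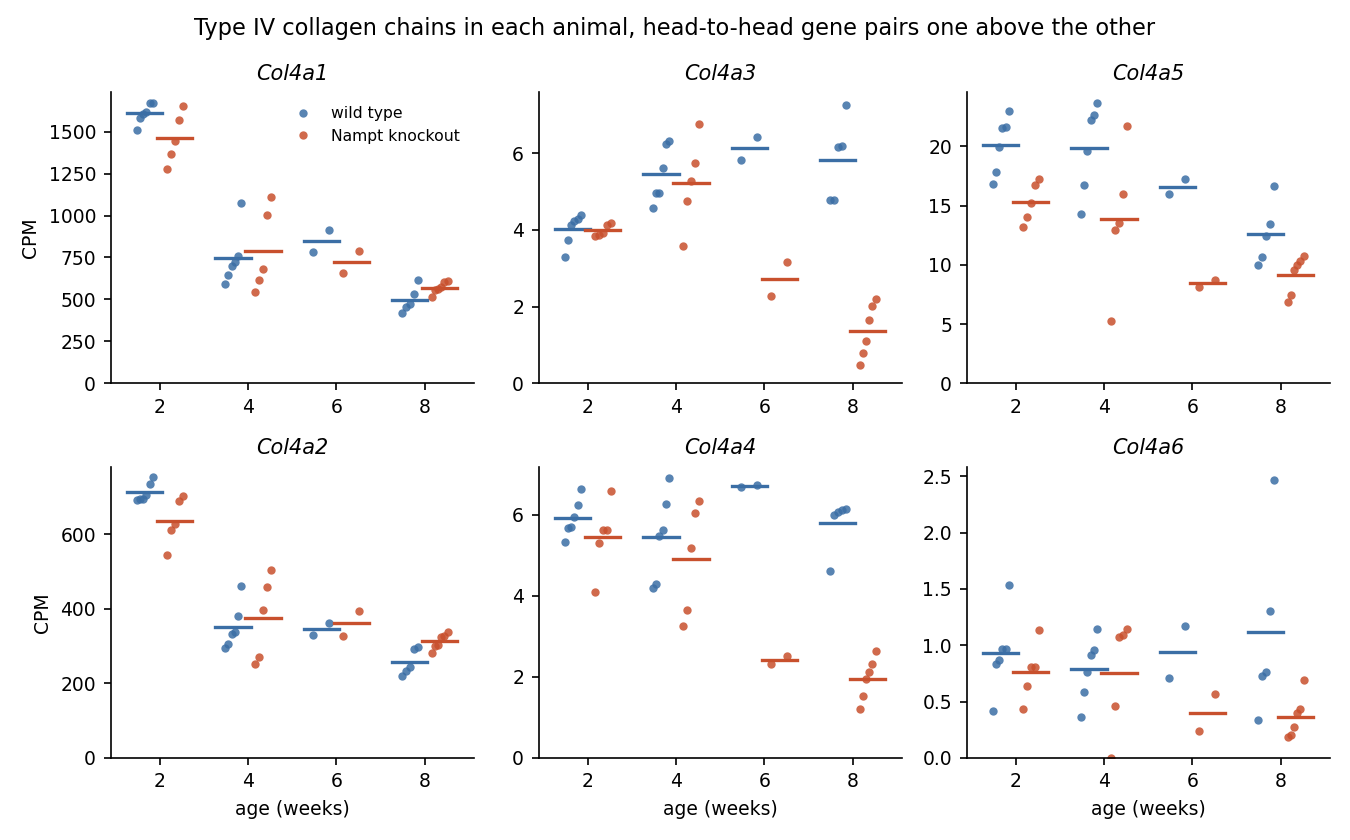
Level (CPM) of the 6 type IV chains in every animal against age, with bars at the group means and the members of each head-to-head gene pair one above the other. Col4a3 and Col4a4 separate between the genotypes at 6 and 8 weeks, whereas Col4a1 and Col4a2 overlap at each age.

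The 6 type IV genes lie in 3 pairs that are read away from each other. In GENCODE vM21 (GRCm38) the starts of Col4a4 and Col4a3 on chromosome 1 leave 71 bases between them. The starts of Col4a1 and Col4a2 on chromosome 8 overlap by 22 bases, and those of Col4a6 and Col4a5 on the X chromosome lie 1308 bases apart. The first gap, whose genes fell together, and the overlap of the second pair, whose genes did not pass, are printed from the genome because each sits between a pair of starts. They are chr1:82586850-82586920 on the minus strand and chr8:11312805-11312826 on the plus strand, and capitals mark a GC box.
Col4a3-Col4a4 gap: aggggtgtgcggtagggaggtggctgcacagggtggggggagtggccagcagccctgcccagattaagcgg
Col4a1-Col4a2 overlap: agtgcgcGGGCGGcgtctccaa
The overlap holds 1 GC box, the gap holds 0, and neither has letters of the other motifs. Of the neighbours that are read toward each other, Col9a1 and Col19a1, which end 9205 bases apart on chromosome 1, fell and rose, while Col3a1 and Col5a2, which end 24614 bases apart on the same chromosome, both rose.

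Fibril-associated chains split by type. Col14a1, which binds fibrils of tendon and of muscle sheaths, was at 36.1, 36.4, 38.5, 44.3 and 49.6 CPM in wild type and 68.1, 117 and 197 CPM (lowest, median, highest) in knockout. The groups did not overlap, and the log2 fold change was 1.57 (SE 0.23, edgeR adjusted p = 1.47e-06). Its near relative Col12a1 stood at -0.04 (SE 0.28). It had 46.9, 60.3, 66.5, 85.1 and 122 CPM in wild type and 34.9, 75.5 and 154 CPM in knockout, so that the wild-type range lay inside that of the knockout. Col22a1, a chain of the muscle side of the muscle-tendon junction, was at 47.3, 48.2, 54.7, 62.2 and 78.5 CPM in wild type and 14.0, 18.4 and 32.8 CPM in knockout. Its groups did not overlap, and it fell by 1.51 log2 units (SE 0.18, edgeR adjusted p = 3.57e-08), with -1.26 in pool A alone and -1.77 in pool B alone. In wild type Col22a1 was at 73.1 ± 4.74 CPM at 2 weeks (n = 6) and 58.2 ± 12.9 at 8 weeks (SD, n = 5).

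Col9a1 and Col9a2, chains of cartilage type IX collagen, had the lowest fold changes of all, -3.31 (SE 0.47) and -3.26 (SE 0.49). Col9a1 was at 0.508, 2.77, 3.47, 4.28 and 6.90 CPM in wild type and 0.0485, 0.375 and 0.546 CPM in knockout, and the lowest wild-type animal, animal 36, fell within the knockout range. Col9a2 rested on 3 to 23 counts per wild-type library and 0 to 6 per knockout library. Col16a1, a minor fibril-associated chain, rose by 0.62 (SE 0.22, edgeR adjusted p = 0.0193). This call was lost in 8 of 23 settings, among them each pool alone and leaving out WT animal 37 or 38 or KO animal 39. Col20a1 stood at 0.40 (SE 0.21).

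The junction-linked chains, each tied by mouse genetics to synapses or to the innervation of muscle, differed from one another at 8 weeks. Col19a1 was at 0.559, 2.17, 2.46, 2.83 and 3.04 CPM in wild type and 3.98, 6.13 and 8.76 CPM (lowest, median, highest) in knockout. No libraries overlapped, and the log2 fold change was 1.62 (SE 0.28, edgeR adjusted p = 1.09e-05). It was the only chain of this class past the threshold at 6 weeks, at 3.46 and 3.52 CPM in wild type and 6.31 and 11.8 CPM in knockout. Col13a1, a transmembrane chain needed for the neuromuscular junction to mature, was at 1.45, 2.42, 2.61, 2.77 and 3.05 CPM in wild type and 1.99, 2.67 and 4.14 CPM in knockout, overlapping (0.31, SE 0.24, edgeR adjusted p = 0.287). Col25a1, a transmembrane chain of the muscle fibre that motor axons need to enter the muscle, was at 0, 0, 0.460, 0.788 and 0.914 CPM in wild type and 0.0569, 0.178 and 0.422 CPM in knockout. Its call (-1.44, SE 0.47, edgeR adjusted p = 0.00992) rested on 0 to 18 counts per wild-type library. Both wild-type libraries of pool A had 0 counts, and pool A alone gave 4.26 (edgeR adjusted p = 0.396). The call was lost in pool B alone, with library sizes alone and without WT animal 36 (-1.17).

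**Figure D5:**
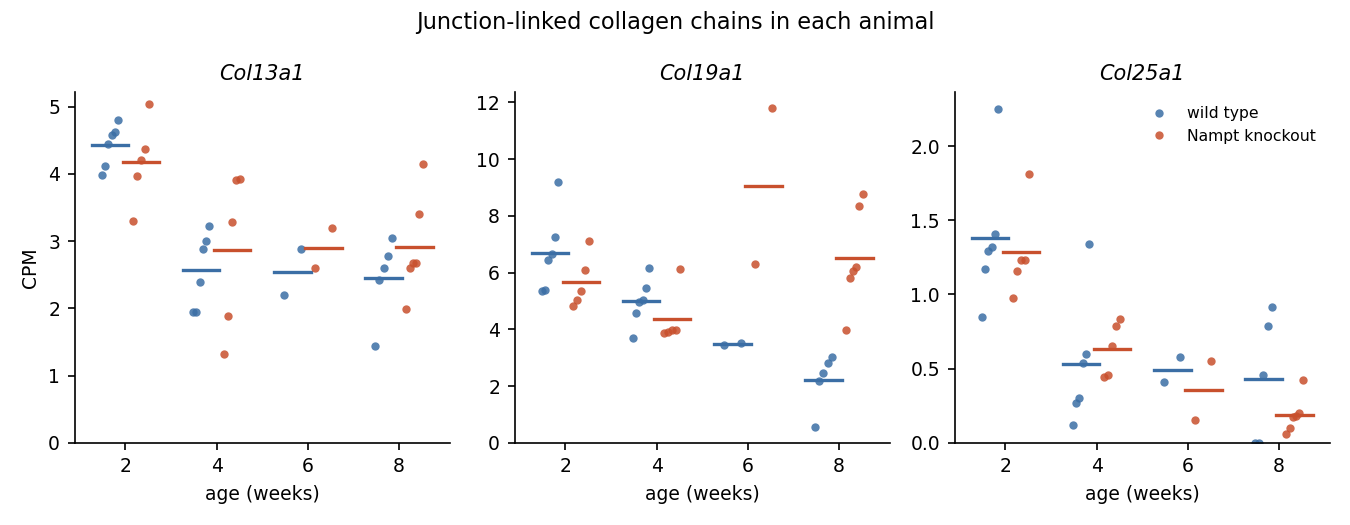
Level (CPM) of the 3 junction-linked chains in every animal against age, with bars at the group means. Col19a1 in knockout lies above wild type at 6 and 8 weeks, Col13a1 overlaps at each age, and Col25a1 has its highest levels at 2 weeks.

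Other genes of the neuromuscular junction rose at 8 weeks in 12 of 16 cases and fell in 0, with a median of 0.49. At this age 26.2% of all genes rose and 26.3% fell. The fetal acetylcholine receptor subunit Chrng changed by 6.08 (SE 0.57), the subunits Chrna1 and Chrnd by 2.09 (SE 0.21) and 1.97 (SE 0.27), and the adult subunit Chrne did not pass (0.17). Colq, the collagen-tailed anchor of acetylcholinesterase, which is no member by its symbol, rose by 0.84 (SE 0.18). At 6 weeks 1 of the 16 rose (5.33% of all genes did). Schwann cell and nerve markers summed to 127 to 538 CPM in wild type and 87.8 to 216 CPM in knockout at 8 weeks. Of these 9 markers 8 fell and Ncam1 rose, and their part was not tested.

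Of the remaining chains, Col8a1 (ENSMUSG00000068196.4, chromosome 16, 57624258 to 57754737, minus strand), a short chain of vessel walls and remodelled matrix, had the highest fold change of all. It was at 14.6, 16.7, 19.7, 21.3 and 33.9 CPM in wild type and 76.7, 86.4 and 242 CPM (lowest, median, highest) in knockout, with no overlap. The log2 fold change was 2.34 (SE 0.29, edgeR adjusted p = 1.31e-07), with 2.93 in pool A alone and 1.91 in pool B alone. KO animal 39 stood far above the rest, and without it the value was 2.06. Its partner Col8a2 stood at -0.38 (SE 0.31). Col17a1, a transmembrane chain of skin anchorage, rose by 1.33 (SE 0.39) from 0.550 ± 0.223 CPM, a call lost in pool A alone. Col10a1 rose by 1.16 (SE 0.43) from 0.346 ± 0.237 CPM, a call lost in 6 of 23 settings, among them without WT animal 37, KO animal 42 or KO animal 44. Col23a1 (0.38, SE 0.23) and Col7a1 (0.34, SE 0.27), which had passed at 6 weeks, did not pass at 8 weeks, and neither did Col26a1 (0.39, SE 0.24) nor Col28a1, a chain of peripheral nerve (-0.40, SE 0.26).

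Whether the effect of the knockout itself changed with age was tested as a contrast within the same model. Between 4 and 8 weeks it rose for 16 chains (13.5% of all genes) and fell for 5 (13.8%), and between 2 and 8 weeks it rose for 14 (18.8%) and fell for 9 (17.6%). These contrasts share the 8-week libraries with each other and with the 8-week comparison. Col14a1 moved by 2.08 (SE 0.32) from 4 to 8 weeks, Col3a1 by 2.05 (SE 0.30), Col8a1 by 2.05 (SE 0.40) and Col6a3 by 1.77 (SE 0.24), each with an edgeR adjusted p of at most 0.000408. Col1a1, which did not pass at either age alone, passed here (1.03, SE 0.36, edgeR adjusted p = 0.0339), but lost the call in 13 of 34 settings. Downward, Col9a2 moved by -3.42 (SE 0.62), Col9a1 by -2.63 (SE 0.65), Col4a3 by -2.04 (SE 0.28), Col4a4 by -1.46 (SE 0.24) and Col22a1 by -1.06 (SE 0.26). In pool A alone 17 rose and 1 fell between 4 and 8 weeks, and in pool B alone 9 rose and 8 fell. The share of all genes in either pool alone is not given here. Between 2 and 8 weeks the splits were 10 and 4 in pool A alone and 7 and 8 in pool B alone. With library sizes alone they were 26 that rose and 3 that fell between 4 and 8 weeks, and 24 and 5 between 2 and 8 weeks, at medians of all genes of 0.77 and 0.66.

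Of 24 genes that modify, fold and export procollagen, 14 rose and 4 fell at 8 weeks by edgeR's test. Of all genes 26.2% rose and 26.3% fell. The median of the 24 was 0.48 (all genes 0.03). Prolyl hydroxylase subunits parted: P4hb rose by 0.54 (SE 0.08) and P4ha3 by 3.74 (SE 0.51), while P4ha2 changed by -0.61 (SE 0.11) and P4ha1, at -0.23, did not pass. Plod2, the lysyl hydroxylase of crosslink sites, rose by 1.48 (SE 0.23), and the collagen chaperone Serpinh1 by 0.73 (SE 0.18). Mia3, which loads procollagen into transport carriers, fell, at -0.65 (SE 0.08), and the coat protein Sec24d rose, at 0.85 (SE 0.14). Of 13 genes of propeptide cleavage and crosslinking, 7 rose and 2 fell. The lysyl oxidases Lox and Loxl1 changed by 1.58 (SE 0.27) and 1.45 (SE 0.15), the N-proteinase Adamts14 by 1.79 (SE 0.25), and the C-proteinase enhancer Pcolce2 by -1.32 (SE 0.20). At 4 weeks P4ha1, P4ha2 and the prolyl isomerase Fkbp14 fell and no gene of either list rose. Of all 16728 genes tested, 534 fell and 413 rose at that age.

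Genes of collagen breakdown and its inhibitors had the highest median of the pathway lists at 8 weeks, 0.86. Of these 18 genes 11 rose (26.2% of all genes did) and 3 fell (26.3%). The collagenase Mmp13 changed by 3.67 (SE 0.61), the stromelysin Mmp3 by 4.02 (SE 0.42), the membrane-bound Mmp14 by 1.23 (SE 0.18) and the collagen uptake receptor Mrc2 by 1.04 (SE 0.16). Inhibitors went both ways: Timp1 rose by 3.71 (SE 0.66), while Timp3 and Timp4 changed by -1.15 (SE 0.11) and -1.62 (SE 0.26). Of 14 laminin, nidogen and other partners of type IV collagen, 9 rose and 0 fell. Npnt rose by 1.53 (SE 0.24), Pxdn, which crosslinks type IV collagen, by 0.74 (SE 0.16) and Hspg2 by 0.60 (SE 0.13), while the muscle laminin chain Lama2, at 0.06, did not pass.

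Marker genes of other cells moved at 8 weeks as well, when 26.2% of all genes rose and 26.3% fell. All 12 macrophage markers rose, with summed levels of 151 to 209.9 CPM in wild type and 797 to 1742 CPM in knockout. Likewise 7 of 9 markers of satellite cells and myoblasts rose while 1 fell (67.6 to 87.5 and 117 to 289 CPM). Of 12 fibroblast and fibro-adipogenic markers, 5 rose and 1 fell, while their sum ran from 1529 to 2152 CPM in wild type and 965 to 1689 CPM in knockout. Pdgfra, the defining receptor, rose by 0.41 and Mfap5 by 1.29, and the abundant Gsn changed by -0.77. Endothelial markers summed to 351 to 560.2 and 266 to 338 CPM (7 of 8 fell). Pericyte and smooth muscle markers summed to 1031 to 1312 and 621 to 817 CPM (5 of 8 fell, 1 rose) and adipocyte markers to 169 to 617 and 107 to 284 CPM (5 of 7 fell). Muscle fibre markers fell in 9 of 10 cases. Outside the cartilage and bone list, no marker was at 0 in all libraries of a group at 8 weeks, and the part of any of these cells in the collagen values was not tested.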

How the data were processed

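The data were a table of whole-number read counts per gene for 37 mouse gastrocnemius libraries. The authors made the counts from 38-bp paired-end reads of ribosome-depleted, stranded total RNA, per the labels' protocols, with STAR 2.5.2b and featureCounts 1.5.2 on mm10, per the submitters' processing notes, which also name edgeR 3.22.0; the strand setting and annotation are not given in the sources used here. Of 50686 gene identifiers, 50462 were matched to GENCODE vM21, which gave symbols, biotypes, coordinates and the transcript lengths behind values per kilobase.

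The counts were filtered (filterByExpr, minimum count 10, minimum total 15), scaled by TMM and fitted in edgeR 4.0.16 (R 4.3.3) with a term for each genotype-by-age group and 1 for sequencing pool over all 37 libraries. Contrasts were tested by the robust quasi-likelihood F-test, with Benjamini-Hochberg adjustment over 16728 genes. A gene rose or fell at an adjusted p below 0.05. The SE of a log2 fold change is its size divided by the square root of F. Libraries held 5192700 to 23134727 counts. The p-values rest on the spread between animals, estimated for each gene over all groups together and moderated across genes. At 6 weeks, with 2 animals per genotype, they therefore draw largely on the spread at other ages. The fit was also run on counts simulated from its own dispersions, with genes changed by a known fold. That checks the code and cannot show how well the model holds for these libraries.

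Members and gene lists were chosen with earlier results of these data known. Named were every chain that passed in a genotype comparison or in a difference of the effect between ages, all chains of types I, III, IV, V and VI, the junction-linked chains, the chains nearest the CPM limit, the most abundant chain and up to 4 chains with the smallest p per class, and up to 4 genes with the smallest p per pathway list; Serpinh1, Sec24d, Colq, Mmp13, Timp1, Timp4 and the named marker genes were added after their values were seen. Alternatives were RLE factors, no scaling factors, no filter, no pool term, either pool alone, the labelled sex as a term, only the groups compared, DESeq2 1.42.0, and leaving out each animal or the libraries that stood apart.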

Additional observations from a re-analysis of the deposited data

Results flagged for a closer look

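In 16 of 294 groups of 5 or 6 animals, 1 animal stood far from the others by Dixon's criterion, which chance meets in about 1 group in 20. The 6-week groups were too small for it. At 8 weeks these were Col8a1 in KO animal 39 (242 CPM, high) and with it the summed level of the other chains (284 CPM), Col1a2 in WT animal 37 (959 CPM, low), Col4a4 in WT animal 35 (4.62 CPM, low) and Col9a2 in KO animal 40 (0.291 CPM, high). At 4 weeks they were Col12a1 in WT animal 2 (216 CPM) and with it the sum of fibril-associated chains (490.4 CPM), Col4a1 in WT animal 6 (1076 CPM), Col19a1 in KO animal 12 (6.12 CPM), and Col7a1 (9.12 CPM) and Col10a1 (1.30 CPM) in KO animal 8. At 2 weeks they were Col22a1 in KO animal 31 (81.3 CPM), Col18a1 in KO animal 29 (58.3 CPM), Col23a1 in WT animal 21 (14.2 CPM), and Col9a2 in WT animal 32 (1.73 CPM) and KO animal 28 (1.97 CPM).

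The effect of the knockout differed between 4 and 8 weeks in 21 chains, by the edgeR contrast of the log2 fold changes. The fibrillar chains in this set moved by 1.03 (Col1a1), 2.05 (Col3a1), 1.40 (Col5a1), 1.53 (Col5a2), 0.84 (Col5a3) and 1.72 (Col27a1), and type VI by 0.96 (Col6a1), 1.27 (Col6a2), 1.77 (Col6a3) and 1.31 (Col6a6). Fibril-associated chains moved by 2.08 (Col14a1), 1.11 (Col16a1), -1.06 (Col22a1), -2.63 (Col9a1) and -3.42 (Col9a2), and basement membrane chains by 0.77 (Col18a1), -2.04 (Col4a3) and -1.46 (Col4a4). Col8a1 moved by 2.05, Col26a1 by 1.01 and Col19a1 by 1.79.

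Between 2 and 8 weeks the effect differed in 23 chains. Fibrillar chains moved by 1.96 (Col3a1), 1.24 (Col5a1), 1.57 (Col5a2), 0.84 (Col5a3), 1.57 (Col27a1), -1.14 (Col2a1), -1.07 (Col11a1) and -1.42 (Col11a2), and type VI by 0.70 (Col6a1), 1.05 (Col6a2) and 1.68 (Col6a3). Fibril-associated chains moved by 1.83 (Col14a1), 0.88 (Col16a1), -1.47 (Col22a1), -3.66 (Col9a1) and -3.37 (Col9a2), and basement membrane chains by 0.63 (Col18a1), -2.20 (Col4a3) and -1.48 (Col4a4). Col8a1 moved by 2.82, Col17a1 by 1.48, Col19a1 by 1.83 and Col25a1 by -1.63.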

How the results depend on the processing

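Counts of chains past the threshold moved by more than 1.5 times in these settings, and the cause was not tested. Some of the settings hold fewer animals, and the share of all genes that passed in each is not given here. At 2 weeks the 0 became 1 with only the groups compared (Col4a5). At 4 weeks the 0 became 12 in pool A alone, 3 without the libraries at odds with their sex label, 1 with DESeq2 and 0 to 11 with 1 animal left out (11 without KO animal 11). At 6 weeks the 8 became 4 without scaling factors, 3 in pool A alone, 0 in pool B alone, 4 with the labelled sex as a term and 2 to 7 with 1 animal left out. From 4 to 8 weeks the 22 of wild type became 5 in pool A alone, and the 26 of knockout 17 in pool A alone and 13 with only the groups compared; from 2 to 4 weeks the 31 of knockout became 9 in pool B alone. For the effect at 8 against 2 weeks the 23 became 14 in pool A alone and 15 in pool B alone. At 8 weeks the 26 ranged from 24 to 28 with 1 animal left out and from 20 to 33 over all settings. Of the 26, 16 passed in every setting that gave them a value, and Col9a2, among these, had a value in 22 of 23. Signs reversed for Col4a5 at 8 weeks without scaling factors (0.38) and for Col25a1 in pool A alone, at 8 weeks (4.26) and for the effect at 8 against 2 weeks (4.19). Of the single-chain values under other settings, 2155 kept direction and side of the threshold, 162 lost the call and 13 gained one. No paired analysis was possible because no groups share animal numbers. The values of Col9a2, Col10a1, Col17a1, Col25a1 and Col4a6 rest on few counts, as do those of Col9a1 in 8-week knockout. The 6-week results rest on 2 animals per genotype.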

Other observations

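Small proteoglycans and other fibril-binding proteins split at 8 weeks. By edgeR's test 5 of 14 rose (26.2% of all genes did) and 6 fell (26.3%). Biglycan (Bgn) rose by 1.78 (SE 0.22) on the log2 scale, while decorin (Dcn), its close relative, changed by -0.83 (SE 0.15), and the tendon proteoglycans fibromodulin (Fmod) and keratocan (Kera) by -1.63 (SE 0.22) and -2.37 (SE 0.29). At 6 weeks 0 of the 14 rose (5.33% of all genes did) and 6 fell (4.34%). Of 22 genes of TGF-beta signalling and its matrix targets, 9 rose and 5 fell at 8 weeks, among them Tgfb1 by 2.02 (SE 0.24), Postn by 3.43 (SE 0.43), Fn1 by 1.36 (SE 0.26) and the signal transducer Smad3 by -0.81 (SE 0.13), while the target Ccn2, at -0.03, did not pass.

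Collagen receptors showed no common direction at 8 weeks: 4 of 11 rose (26.2% of all genes did) and 2 fell (26.3%). Lair1, an inhibitory receptor of leukocytes, rose by 2.97 (SE 0.40), alongside the macrophage markers, whose part was not tested. The integrin subunits Itga1 and Itga2 changed by -0.50 (SE 0.13) and -0.87 (SE 0.23), and Cspg4, a proteoglycan that binds type VI collagen, by 0.64 (SE 0.19).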
